A study of Mus musculus with 6 samples.

Results

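The mitosis and spindle genes described here are 50 mouse genes whose products take a cell through mitosis. They were chosen by symbol for their roles, with earlier results of these data known, and all 50 were found among the 34745 genes of the expression table. RNA-seq was run on stromal cultures (lung mesenchymal stromal cells, LMSCs) grown from MMTV-PyMT mice, which carry the polyoma middle T antigen under a mammary tumour virus promoter that is active mainly in mammary epithelium. All 3 groups carry that transgene. They are LMSCs of the adenoma stage at 6 to 7 weeks of age (A-LMSCs), of the pre-metastatic stage at 9 to 10 weeks (PM-LMSCs) and of the metastatic stage at 13 to 14 weeks (M-LMSCs), each with 2 libraries numbered 1 and 2 and each at passage 3. The ages are those of the labels, and the study's methods put the first 2 stages a week later. Lung was digested with collagenase and hyaluronidase, and adherent cells depleted of CD45+ cells were expanded on plastic in serum, so the levels are those of growing cultures and not of cells in the lung. The study counts its samples of a stage as separate mice, which the labels do not name.

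Mitosis is run by cyclin-dependent kinase 1 with its A and B type cyclins, together with the Polo and Aurora kinases. Kinesin motors build the spindle, kinetochores tie chromosomes to it, and the spindle assembly checkpoint withholds anaphase until the ties are made, after which the anaphase promoting complex has cyclin B and securin destroyed. Most of these genes are transcribed mainly in dividing cells, late in the cell cycle, and in a bulk culture their RNA is widely read as a measure of how many cells are in or near mitosis.

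Many late cell cycle promoters share a CCAAT box, bound by the factor NF-Y, and the cell cycle genes homology region TTTGAA, bound by the MuvB complex. Of the 50 genes, 42 matched a RefSeq promoter (build GRCm38.p6, the assembly that mm10 also names). In windows from 250 bases before to 30 bases after the start site, read on both strands, 73.8% of these 42 held CCAAT against 39.7% of all 27025 genes with a promoter, and 69.0% held TTTGAA against 19.5%. Both motifs stood in 59.5% of the members and in 7.37% of all promoters. Within 60 bases before to 30 bases after the start, TTTGAA was present in 59.5% of members and 5.36% of all promoters, and CCAAT in 57.1% and 16.0%. The promoters of the 4 members with the largest difference from A-LMSCs to M-LMSCs that held both motifs are shown because they carry what the members share in sequence, and the capitals mark CCAAT or TTTGAA on either strand (ATTGG and TTCAAA where the motif is on the opposite strand). They are Cdc20 (chr4:118437314-118437593, minus strand), Kif18b (chr11:102925095-102925374, minus strand), Ube2c (chr2:164769679-164769958, plus strand) and Cdca8 (chr4:124936888-124937167, minus strand).
Cdc20: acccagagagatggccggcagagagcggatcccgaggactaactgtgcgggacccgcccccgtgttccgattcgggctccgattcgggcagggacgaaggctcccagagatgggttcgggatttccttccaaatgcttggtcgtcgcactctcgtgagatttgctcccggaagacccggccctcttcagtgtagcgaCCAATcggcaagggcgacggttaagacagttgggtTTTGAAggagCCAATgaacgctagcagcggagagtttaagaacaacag
Kif18b: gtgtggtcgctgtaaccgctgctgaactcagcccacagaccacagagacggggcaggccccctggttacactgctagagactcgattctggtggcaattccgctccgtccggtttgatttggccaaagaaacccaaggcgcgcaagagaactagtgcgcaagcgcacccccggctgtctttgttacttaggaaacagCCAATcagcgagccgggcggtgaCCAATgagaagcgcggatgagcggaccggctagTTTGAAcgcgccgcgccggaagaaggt
Ube2c: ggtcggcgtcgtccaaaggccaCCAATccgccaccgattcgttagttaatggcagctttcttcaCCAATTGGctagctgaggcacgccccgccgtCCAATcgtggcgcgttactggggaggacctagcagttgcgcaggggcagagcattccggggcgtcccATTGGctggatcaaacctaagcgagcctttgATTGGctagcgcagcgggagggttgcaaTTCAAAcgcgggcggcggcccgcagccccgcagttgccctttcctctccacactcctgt
Cdca8: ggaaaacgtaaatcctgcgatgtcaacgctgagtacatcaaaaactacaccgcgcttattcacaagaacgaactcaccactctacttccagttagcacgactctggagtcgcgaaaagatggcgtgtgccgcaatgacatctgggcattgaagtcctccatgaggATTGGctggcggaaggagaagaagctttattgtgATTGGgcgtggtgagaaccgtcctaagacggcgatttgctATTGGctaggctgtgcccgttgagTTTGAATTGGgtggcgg

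In Cdc20 the TTTGAA ran from 18 to 13 bases before the start, between CCAAT boxes whose first bases were 53 and 8 bases before it. Kif18b had boxes beginning 53 and 30 bases before the start, with TTTGAA from base 4 to base 9 after it. In Cdca8 the TTTGAA overlapped a CCAAT box on the opposite strand. Plk1 and Aurka, with the 2 largest fitted differences, held CCAAT but no TTTGAA in the window. These matches are letters in a window and say nothing of which factor was bound in these cells.

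RNA of the mitosis and spindle genes was lower at each later stage. Their summed level was 493 and 522 FPKM (fragments scaled to transcript length and library depth) in the A-LMSC libraries, 418 and 399 in the PM-LMSC libraries and 265 and 335 in the M-LMSC libraries. The sum at the PM stage was 80.5% of that at the A stage, and the sum at the M stage was 59.1% of the A stage and 73.5% of the PM stage. The stages did not overlap in this sum. In a culture, such levels cannot tell fewer dividing cells from less of these RNAs in each dividing cell. The study itself reported that its LMSCs of the different stages were alike in their capacity to proliferate in culture. How that assay relates to these RNA levels was not tested. The genes took 0.185% and 0.196% of all FPKM in A-LMSCs and 0.103% and 0.127% in M-LMSCs, and they ranged from 0.307 FPKM (Cenpf) to 73.3 FPKM (Bub3).

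**Figure D1:**
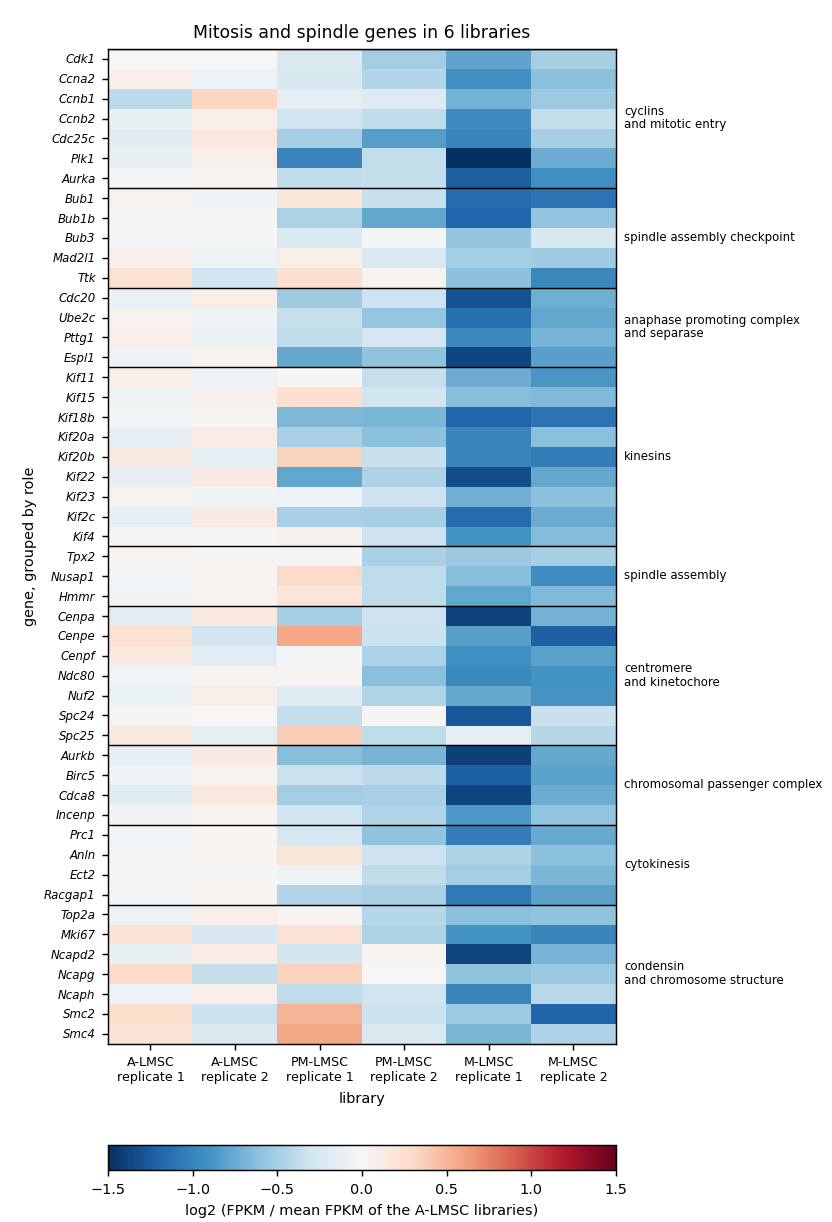
Heat map of the 50 mitosis and spindle genes (rows, grouped by role) in the 6 libraries (columns), coloured by the log2 of FPKM over the mean FPKM of the 2 A-LMSC libraries. All values in both M-LMSC columns are below 0. PM-LMSC replicate 1 holds 16 genes above both A-LMSC libraries, a pattern that 44.4% of all genes tested showed.

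The comparison of M-LMSCs with A-LMSCs asks what differs between the last and the first stage. All 50 genes had both M-LMSC libraries below both A-LMSC libraries, although for Spc25 the nearest pair both rounded to 1.93 FPKM. Of all 10279 genes tested, 24.4% showed that pattern. The M-LMSC mean ranged from 45.3% of the A-LMSC mean (Kif18b) to 82.4% (Spc25), with a median of 56.7%. On the log2 scale of FPKM + 1, which understates the change of low genes, the median difference of the 48 genes that reached a mean of 1 FPKM was -0.61, against 0.03 for all genes tested.

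These differences were tested with limma across all genes, with Benjamini-Hochberg adjustment. With 1 mean per stage, none of the 48 passed an adjusted p of 0.05, where 0.0292% of all genes were called lower, and the smallest adjusted p among them was 0.0713 (Kif18b). At an unadjusted p under 0.05, 44 of the 48 were lower and 0 higher, against 6.96% of all genes lower. A second fit took the replicate number as a block, a pairing accepted from deviations in these same data and not named by the labels. With that block, 23 of the 48 fell at an adjusted p under 0.05 and 0 rose, against 1.64% of all genes called lower. The smallest blocked adjusted p was 0.0157, again for Kif18b. When GC content and transcript length were corrected for along with the block, 22 of the 48 were called lower against 1.23% of all genes, and 19 genes were called in both, which is 82.6% and 86.4% of the 2 sets. The 4 called with the block but not after the correction were Ccna2, Ube2c, Aurkb and Incenp, with adjusted p values of 0.0555, 0.0528, 0.0523 and 0.0622 in the corrected fit. The 3 called there and not with the block alone were Nuf2 (0.0342), Ect2, a regulator of the cleavage furrow (0.0417), and Anln (0.0496). With each library left out in turn, without the block, all 48 stayed lower in M-LMSCs. Without M-LMSC replicate 2, which leaves the M stage a lone library, their fitted differences ran from -1.4 to -0.1.

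**Figure D2:**
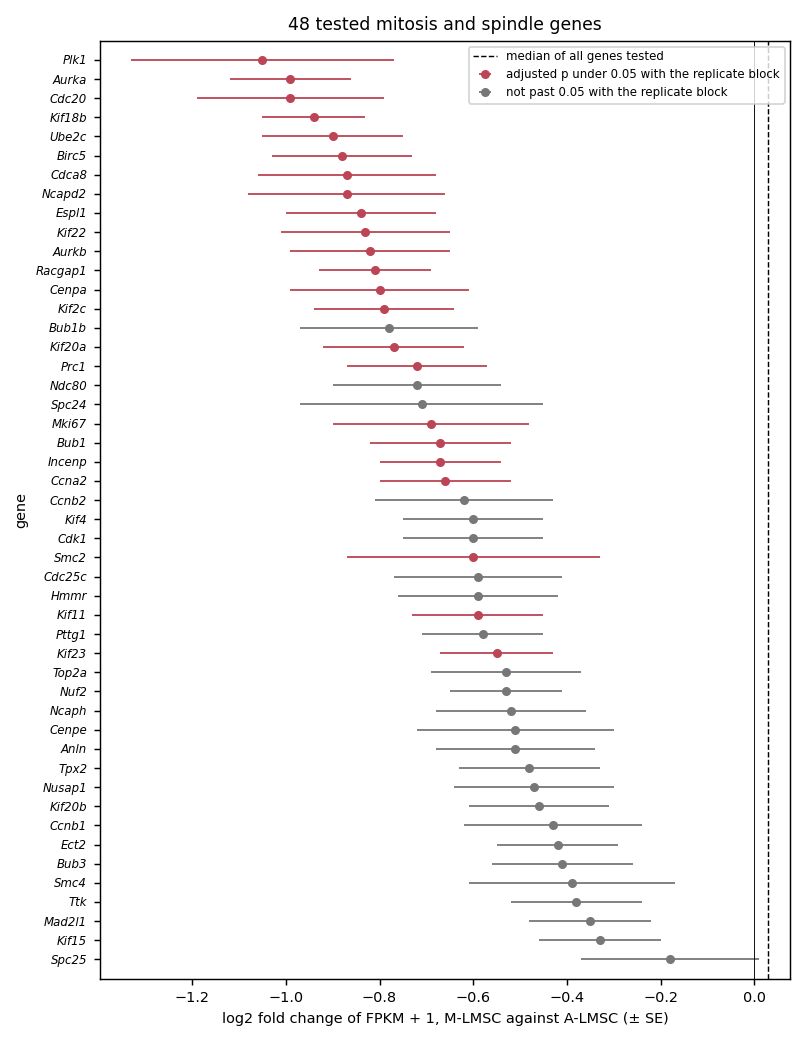
Fitted log2 fold change of FPKM + 1 from A-LMSCs to M-LMSCs (x axis) with its standard error in the fit without the block, for the 48 tested genes ordered by size. All points lie left of 0 and of the dashed median of all genes tested (0.03), and the 23 red points have an adjusted p under 0.05 with the replicate block.

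Among the cyclins and kinases of mitotic entry, Plk1, the Polo-like kinase that drives entry and spindle assembly (chr7:122159439-122169873), had the largest fitted difference. Plk1 measured 24.8 and 28.6 FPKM in A-LMSCs, 13.4 and 20.7 in PM-LMSCs and 9.44 and 16.0 in M-LMSCs, so that the spread between the 2 libraries of a stage was wide at the later stages. The log2 fold change of Plk1 was -1.05 (SE 0.28), with an adjusted p of 0.176 without the block and 0.019 with it. Aurka, the Aurora kinase of the spindle poles (chr2:172356190-172370535), stepped down with little spread: 17.1 and 17.7 FPKM, then 13.4 and 13.6, then 7.40 and 9.23. No 2 stages of Aurka overlapped. Its log2 fold change was -0.99 (SE 0.13), with an adjusted p of 0.0735 without the block and 0.0163 with it. Ccna2, cyclin A, measured 9.23 and 8.22 FPKM in A-LMSCs, 7.41 and 6.45 in PM-LMSCs and 4.62 and 5.71 in M-LMSCs, and was just inside the threshold with the block at an adjusted p of 0.0496, a call lost with the correction for GC content and length. The other 4 genes of this role did not pass in any of these fits. Ccnb2, a B type cyclin, measured 24.4 and 28.2 FPKM in A-LMSCs, 21.3 and 20.2 in PM-LMSCs and 13.7 and 20.5 in M-LMSCs, so that its second M-LMSC library lay between the PM-LMSC libraries. Cdk1, the kinase that binds these cyclins, stood at 64.2% of its A-LMSC mean in M-LMSCs with an adjusted p of 0.0677 with the block. Cdc25c, the phosphatase that activates Cdk1, had PM-LMSC and M-LMSC means at 63.5% and 60.8% of the A-LMSC mean. Ccnb1, the main mitotic cyclin, was at 64.7%, but its value is uncertain because 4 other annotated genes match its transcript at 95% identity or more.

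The genes of anaphase onset and of the chromosomal passenger complex had the lowest median levels relative to A-LMSCs of the 9 roles, 51.1% and 49.7%. Cdc20, the activator that hands the complex its substrates, measured 48.7 and 55.2 FPKM in A-LMSCs, 35.9 and 41.9 in PM-LMSCs and 21 and 31.3 in M-LMSCs. Ube2c, its ubiquitin-conjugating enzyme, measured 26.5 and 24.7 FPKM, then 20.2 and 17.1, then 11.7 and 14.9. Espl1, the separase that cuts cohesin at anaphase, measured 4.88 and 5.30 FPKM, then 3.00 and 3.35, then 1.96 and 2.89. All 3 stepped down at each stage without overlap between stages and passed with the block, at adjusted p values of 0.0171, 0.0265 and 0.022, of which Ube2c alone was lost with the correction for GC content and length. Pttg1, the securin that holds separase in check, had an adjusted p of 0.0514 with the block and was at 56.4% of its A-LMSC mean.

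All 4 subunits of the chromosomal passenger complex, which corrects faulty kinetochore attachments and guides cytokinesis, fell from A-LMSCs to M-LMSCs with the block. Aurkb, its kinase, measured 4.43 and 5.31 FPKM in A-LMSCs, 3.14 and 3.01 in PM-LMSCs and 1.85 and 2.86 in M-LMSCs (blocked adjusted p 0.0288). Birc5, survivin, measured 10.3 and 11.0 FPKM, then 8.55 and 8.12, then 4.59 and 6.14 (0.0228). Cdca8, borealin, was at 6.51 and 8.21 FPKM, then 5.14 and 5.25, then 2.83 and 4.38 (0.025). In each of these 3 the first M-LMSC library was the lower of the pair, and no library of a later stage reached one of an earlier stage. Incenp, the scaffold, kept the highest share of the 4, with 16.3 and 17.4 FPKM in A-LMSCs, 13.7 and 12.4 in PM-LMSCs and 9.32 and 11.2 in M-LMSCs (0.0355). The calls of Aurkb and Incenp were lost when GC content and length were corrected for as well.

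Of the 9 kinesins, 6 fell from A-LMSCs to M-LMSCs with the block. Kif18b, which trims astral microtubules, measured 6.82 and 7.00 FPKM in A-LMSCs, 4.32 and 4.29 in PM-LMSCs and 3.03 and 3.22 in M-LMSCs. From A-LMSCs to M-LMSCs it differed by -0.94 on the log2 scale (SE 0.11), the smallest error among the 5 members with the largest fitted differences, and no 2 of its stages overlapped. Kif20a, which carries the passenger complex to the midzone, measured 28.4 and 33.4 FPKM, then 22.0 and 20.2, then 15.5 and 20.0, although 1271 of its 4338 exon bases overlap Cdc23 on the opposite strand and the strand setting of the counting is not known. Cdc23 itself measured 5.15 to 6.24 FPKM over the 6 libraries, below Kif20a in each of them. Kif22, a motor on chromosome arms, measured 5.42 and 6.53 FPKM in A-LMSCs, 3.48 and 4.35 in PM-LMSCs and 2.37 and 3.52 in M-LMSCs. Kif2c, which takes microtubules apart at kinetochores, measured 6.51 and 7.75 FPKM, then 5.10 and 5.03, then 3.20 and 4.27. In Kif22 alone of these 4 did an M-LMSC library exceed a PM-LMSC library. Kif11, the motor that pushes the spindle poles apart, measured 3.67 and 3.30 FPKM in A-LMSCs, 3.51 and 2.74 in PM-LMSCs and 2.07 and 1.90 in M-LMSCs. Kif23, the centralspindlin motor, was at 6.07 and 5.68 FPKM, then 5.53 and 4.74, then 3.57 and 3.82. Their PM-LMSC means were 89.7% and 87.5% of the A-LMSC means, and their M-LMSC means 57.0% and 62.9%. Their blocked adjusted p values were 0.0384 and 0.0497. Kif4, Kif15 and Kif20b did not pass in any of these fits.

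Among checkpoint genes, Bub1, the kinase that gathers the checkpoint proteins at kinetochores, passed with the block at an adjusted p of 0.0394. Bub1 measured 2.33 and 2.14 FPKM in A-LMSCs, 2.55 and 1.77 in PM-LMSCs and 1.01 and 1.04 in M-LMSCs, so that the A-LMSC and PM-LMSC libraries overlapped and the M-LMSC libraries lay below both. Bub1b, its partner in the checkpoint, had another course, with PM-LMSC and M-LMSC means at 65.0% and 54.9% of the A-LMSC mean. Bub3, the WD-repeat adaptor of both, was the most abundant member, at 71.1 and 73.3 FPKM, then 61.6 and 71.2, then 47.9 and 61.0. It was at 75.4% of the A-LMSC mean in M-LMSCs and was not called in any of them (adjusted p 0.28 without the block and 0.0896 with it).

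Of the 7 centromere and kinetochore genes, Cenpa, the histone variant that marks centromeres, passed with the block at an adjusted p of 0.0239. Cenpa measured 4.61 and 5.73 FPKM in A-LMSCs, 3.66 and 4.18 in PM-LMSCs and 1.98 and 3.16 in M-LMSCs. The 4 subunits of the Ndc80 complex, which binds the microtubule, were spread: Nuf2 and Ndc80 stood at 56.2% and 52.5% of the A-LMSC mean in M-LMSCs, Spc24 at 60.1% and Spc25 at 82.4%. None of the 4 passed without the block or with it, Nuf2 passed with the block and correction together (adjusted p 0.0342), and the difference between the subunits was not tested.

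Cytokinesis and chromosome structure genes were lower as well. Racgap1, the GTPase regulator that pairs with Kif23, measured 8.69 and 9.18 FPKM in A-LMSCs, 6.61 and 6.37 in PM-LMSCs and 4.25 and 5.13 in M-LMSCs, with a blocked adjusted p of 0.0214. Prc1, which bundles the midzone, measured 5.69 and 5.98 FPKM, then 4.88 and 3.84, then 2.84 and 3.47 (0.0429). Anln, the actin-binding anillin of the cleavage furrow and a member with a high level, measured 24.7 and 25.8 FPKM in A-LMSCs, 28.6 and 20.4 in PM-LMSCs and 18.4 and 16.5 in M-LMSCs, and passed only with the block and correction together (0.0939 with the block alone). Racgap1 and Prc1 did not overlap between any 2 stages, whereas the PM-LMSC libraries of Anln lay on both sides of the A-LMSC libraries. Ncapd2, a condensin subunit, measured 7.58 and 8.85 FPKM in A-LMSCs, 6.76 and 8.48 in PM-LMSCs and 3.15 and 5.08 in M-LMSCs (0.0216). Mki67, the proliferation marker that coats mitotic chromosomes, measured 4.82 and 3.53 FPKM, then 4.85 and 3.02, then 2.24 and 2.11 (0.0454). Smc2, the ATPase core of condensin, was at 4.07 and 2.71 FPKM, then 4.81 and 2.72, then 2.33 and 1.48 (0.0394). In these 3 the A-LMSC and PM-LMSC libraries overlapped and the M-LMSC libraries lay below both stages. Top2a, which untangles chromosomes, was at 65.3% of the A-LMSC mean in M-LMSCs (0.0997), and the 3 spindle assembly genes Tpx2, Nusap1 and Hmmr, at 69.4%, 58.4% and 60.8%, did not pass in any of these fits.

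The 5 tested members with the smallest fitted difference from A-LMSCs to M-LMSCs were Spc25, Kif15, Mad2l1, Ttk and Smc4. Spc25 measured 2.35 and 1.93 FPKM in A-LMSCs, 2.77 and 1.65 in PM-LMSCs and 1.93 and 1.59 in M-LMSCs, and its log2 fold change of -0.18 (SE 0.19) was within its error. Kif15, a spindle motor that can stand in for Kif11, measured 1.27 and 1.39 FPKM, then 1.59 and 1.10, then 0.854 and 0.839. Mad2l1, the checkpoint protein that binds Cdc20, measured 2.56 and 2.30 FPKM, then 2.59 and 2.08, then 1.71 and 1.68. These are low levels, at which adding 1 FPKM before the logarithm shrinks a difference: Kif15 was at 63.8% of its A-LMSC mean with a log2 fold change of -0.33, while Kif23, at 62.9% and a higher level, had one of -0.55. Ttk, the checkpoint kinase Mps1, measured 1.51 and 1.06 FPKM in A-LMSCs, 1.52 and 1.34 in PM-LMSCs and 0.840 and 0.662 in M-LMSCs. Smc4, the other condensin ATPase, was at 3.31 and 2.49 FPKM, then 4.35 and 2.50, then 1.80 and 2.11. By share of the A-LMSC mean, Spc25 at 82.4% and Bub3 at 75.4% were the members least below the adenoma stage.

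**Figure D3:**
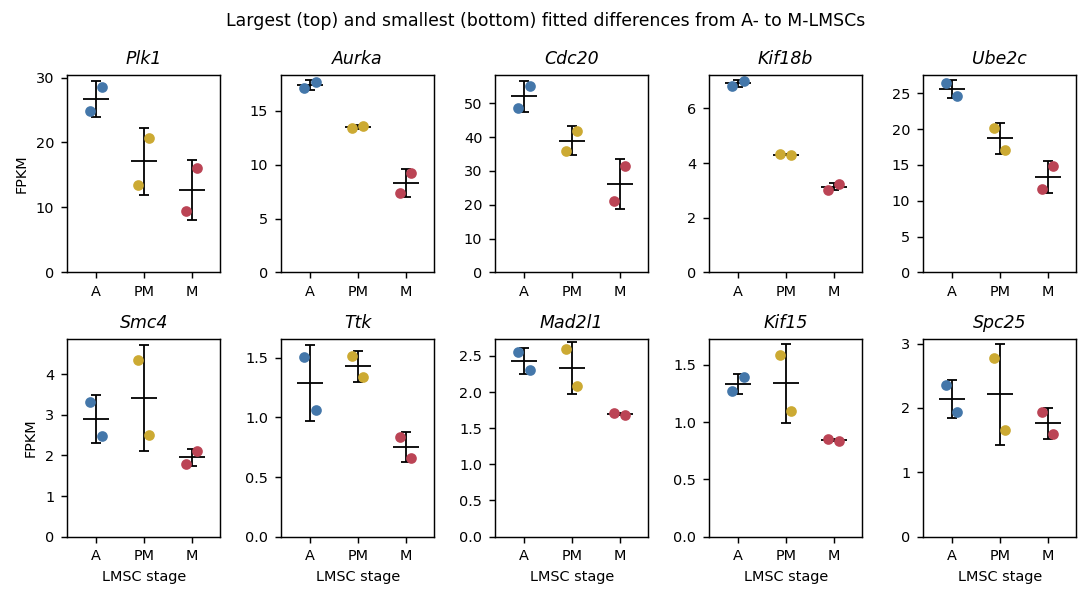
FPKM (y axis, from 0) of the 5 genes with the largest (top row) and the 5 with the smallest (bottom row) fitted difference from A-LMSCs to M-LMSCs, by stage. Points are the 2 libraries of a stage, the long bar is their mean and the error bars are the SD, and Kif18b keeps 4.32 and 4.29 FPKM in PM-LMSCs while Smc4 spans 4.35 and 2.50.

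From A-LMSCs to PM-LMSCs the genes were lower by less. The PM-LMSC mean was below the A-LMSC mean for 42 of the 50 and above it for 8, with a median of 84.2% and a range from 62.4% (Kif18b and Espl1) to 118% (Smc4). Both PM-LMSC libraries lay below both A-LMSC libraries for 27 of the 48 tested genes, against 19.7% of all genes tested. Without PM-LMSC replicate 1 the count was 41, but only a lone library then had to lie below both. That is an easier condition, and its share of all genes is not given here. In limma 0 of the 48 passed without the block (0.00973% of all genes were called lower) and 0 with it (0.0292%), while 14 were lower at an unadjusted p under 0.05 without the block, against 2.61% of all genes, and 0 higher. The smallest adjusted p was 0.321 without the block and 0.0855 with it, both for Kif18b. By role, both PM-LMSC libraries lay below both A-LMSC libraries for all 4 genes of anaphase onset (Cdc20, Ube2c, Pttg1 and Espl1). The same held for all 4 passenger complex genes and 6 of the 7 entry genes. It held for 1 of the 7 condensin and chromosome structure genes and for 1 of the 5 checkpoint genes.

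From PM-LMSCs to M-LMSCs all 50 means were lower, with a median of 71.3% of the PM-LMSC mean and a range from 43.6% (Cenpe, a kinetochore motor) to 95.7% (Cdc25c). Both M-LMSC libraries lay below both PM-LMSC libraries for 40 of the 48 tested genes, against 16.7% of all genes tested. None of the 48 passed without the block (0.00973% of all genes were called lower) or with it (0.146%), and 28 were lower at an unadjusted p under 0.05 without the block, against 4.46% of all genes, with 0 higher. The smallest adjusted p was 0.231 without the block (Aurka) and 0.0629 with it (Ncapd2). The 7 condensin and chromosome structure genes had a median of 57.0% of the PM-LMSC mean, the lowest of the 9 roles, and the entry genes a median of 74.7%, the highest. The 3 comparisons share libraries with each other, so their values are not separate evidence.

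The members that departed from a decline at each stage did so at the PM stage. Their PM-LMSC means were above the A-LMSC means in Smc4 (118%), Cenpe (114%), Ncapg (113%), Ttk and Smc2 (111% each), Spc25 and Kif20b (103% each) and Kif15 (101%). None of the 7 of these that were tested passed, with adjusted p values from 0.919 to 0.999 without the block and from 0.758 to 0.997 with it. Cenpe, for example, measured 1.77 and 1.24 FPKM in A-LMSCs and 2.25 and 1.21 in PM-LMSCs, so that its PM-LMSC libraries lay on both sides of the A-LMSC libraries. PM-LMSC replicate 1 lay above both A-LMSC libraries for 16 members. Between libraries of the same number the difference was not always in replicate 1: that of Ttk from A-LMSCs to PM-LMSCs was 0 in replicate 1 and 0.18 in replicate 2 on the log2 scale of FPKM + 1, and that of Ncapg was 0.03 and 0.16. Among the tested members the count for replicate 1 was 15 of 48, a smaller share than the 44.4% of all genes tested that showed it. The 16 were Bub1, Mad2l1, Ttk, Kif15, Kif20b, Kif4, Nusap1, Hmmr, Cenpe, Ndc80, Spc25, Anln, Mki67, Ncapg, Smc2 and Smc4.

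These 16 genes differed from the other 34 in transcript make-up, though the same split of all genes tested is not given here. Their transcripts had a median GC content of 42.2% and a median length of 4460 bases, against 48.3% and 2995 bases in the others, and a median level of 2.09 FPKM against 6.02 FPKM. Across the 50 members, the log2 ratio of replicate 1 to replicate 2 within a stage ran with GC content, with r = -0.478 in A-LMSCs, -0.695 in PM-LMSCs and -0.72 in M-LMSCs. Across 10257 tested genes with a GC value, on FPKM + 1, r was -0.147, -0.503 and -0.441. Stage differences of the members ran with GC content too. On log2 ratios of stage means, r was -0.755 from A-LMSCs to PM-LMSCs, -0.466 from A-LMSCs to M-LMSCs and 0.406 from PM-LMSCs to M-LMSCs. On FPKM + 1 these were -0.789, -0.784 and 0.0147, against -0.241, -0.287 and -0.131 across the 10257 genes. These are correlations across genes measured in the same libraries, and genes are not independent replicates. The part of GC content in the departures, in the stage differences and in the order of the roles was not tested. After correction for GC content and length, all 48 tested members had a lower fitted value in PM-LMSCs than in A-LMSCs. Those values ran from -0.6 to -0.01 on the log2 scale, with 0 called.

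**Figure D4:**
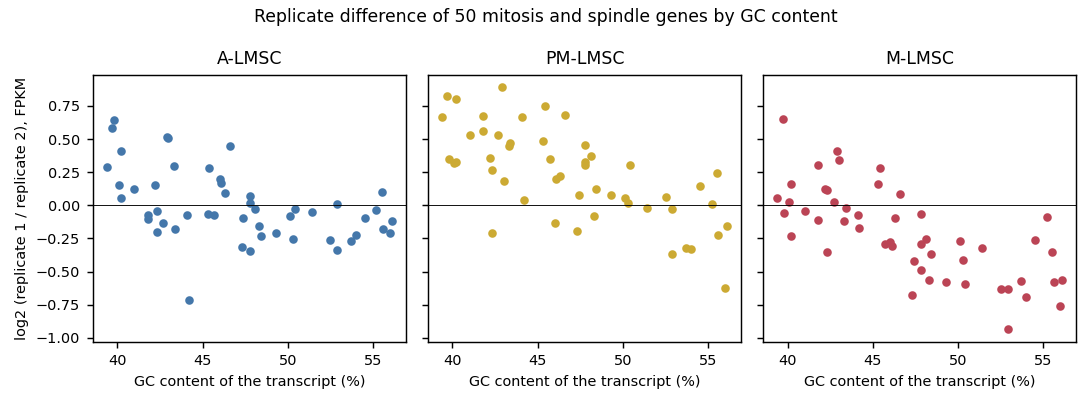
Log2 ratio of FPKM in replicate 1 to replicate 2 (y axis) against the GC content of the transcript in percent (x axis) for the 50 genes, in 1 panel per stage. In PM-LMSCs most low-GC genes lie above 0 and in M-LMSCs most high-GC genes lie below it, with r = -0.695 and -0.72.

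Only 2 members did not reach a mean of 1 FPKM and were not tested. Cenpf, a large outer kinetochore protein, measured 0.640 and 0.520 FPKM in A-LMSCs, 0.570 and 0.418 in PM-LMSCs and 0.307 and 0.333 in M-LMSCs. Ncapg, a condensin subunit, measured 1.17 and 0.750 FPKM, then 1.22 and 0.956, then 0.631 and 0.656. Both followed the other members in that their M-LMSC libraries were below their A-LMSC libraries. As for identity, 12 members share exon bases with a gene on the opposite strand, among them Kif20a, Prc1 and Kif4, 2 share bases with a gene on the same strand, and 10 hold a stretch of at least 200 bases that another annotated gene matches at 95% or more, so that reads could be split or shared there.

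Other cell cycle genes were set beside the 50, by list. Of 76 other mitosis genes, 61 were tested, and 19 fell from A-LMSCs to M-LMSCs with the block while 0 rose, where 1.64% of all genes were called lower (median log2 fold change -0.45). With the correction for GC content and length as well, 21 of the 61 were called. Ccnf, an F-box cyclin, had the largest difference among them, at 11.4 and 12.7 FPKM in A-LMSCs, 7.27 and 9.26 in PM-LMSCs and 4.21 and 5.91 in M-LMSCs. Pkmyt1, a kinase that restrains Cdk1, was next, at 7.41 and 7.90 FPKM, then 4.08 and 5.49, then 2.25 and 4.08. Their log2 fold changes were -1.12 and -1.09, larger than that of any of the 50. At the other end of that list stood Zwint at 0.14 (SE 0.12) and Psrc1 at 0.09 (SE 0.11), neither of them called. Of 22 tested DNA replication genes, 10 fell and 0 rose with the block (median -0.53), and 9 with the correction as well. Among them were Mcm5 of the replicative helicase (log2 fold change -1.05, SE 0.24) and Tk1, thymidine kinase (-0.97, SE 0.19). Rrm1 had the smallest difference of the replication genes, at -0.11 (SE 0.11). Without the block no gene of these or the following cell cycle lists passed in any of the 3 comparisons.

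Partners of the members on the protein level were tested too. The anaphase promoting complex list, which holds subunits of the complex and its coactivator Fzr1, had 0 of 15 genes called in either direction with the block (median log2 fold change -0.01), from Fzr1 at -0.47 (SE 0.16) to the subunit Anapc10 at 0.36 (SE 0.15). Cohesin, which Espl1 acts on, and its regulators as listed here had 0 of 9 called (median 0), from Rad21 at -0.11 (SE 0.12) to Wapl at 0.03 (SE 0.24). The untested Esco1 and Esco2 of that list were at 102% and 40.5% of their A-LMSC means. Sgo1 and Cdca5, which also act on cohesin, were counted among the other mitosis genes. They stood at -0.53 (SE 0.12) and -0.73 (SE 0.23), with adjusted p values of 0.0325 and 0.077 in the fit with block and correction. At an unadjusted p under 0.05 without the block, 1 of the 15 was lower and 1 higher, and 0 of the 9 in either direction. With 1.64% of all genes called lower and 2.28% called higher, lists of this size at 0 are at the background. Of 15 tested MuvB, FoxM1 and E2F regulators, 3 fell with the block and 0 rose (median -0.17), and 2 were called with the correction as well. Foxm1, the activator of late cell cycle genes, measured 9.44 and 9.92 FPKM in A-LMSCs, 7.17 and 6.24 in PM-LMSCs and 3.73 and 4.50 in M-LMSCs. The fitted difference of Foxm1 from A-LMSCs to M-LMSCs was -1.07 (SE 0.13), with an adjusted p of 0.072 without the block and 0.0171 with it. Mybl2, the B-Myb activator of the same promoters, measured 4.38 and 4.67 FPKM, then 3.04 and 3.76, then 1.40 and 2.57. E2f1 was at 64.1% of its A-LMSC mean in M-LMSCs (blocked adjusted p 0.0459, and 0.112 with the correction), and at the other end of that list stood Rb1, the retinoblastoma protein, at 0.45 (SE 0.19).

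Upstream of these, the cyclin-dependent kinase inhibitors had a median log2 fold change of 0.44, and 2 of 6 rose with the block, against 2.28% of all genes called higher. Cdkn2b, which blocks the cyclin D kinases, measured 38.6 and 33.3 FPKM in A-LMSCs, 52.0 and 60.6 in PM-LMSCs and 72.7 and 60.3 in M-LMSCs. Cdkn1b, which binds cyclin E kinase, measured 2.86 and 3.44 FPKM, then 3.79 and 3.92, then 5.24 and 6.11. Cdkn2d went the other way, to 66.9% of the A-LMSC mean, with a blocked adjusted p of 0.0478. With the correction for GC content and length as well, Cdkn2b and Cdkn2a were called higher (adjusted p 0.0335 each), where 1.56% of all genes were. Cdkn2a, which had not passed with the block alone (0.0531), measured 37.0 and 36.5 FPKM, then 47.3 and 46.8, then 48.8 and 59.2. Cdkn1b (0.0523) and Cdkn2d (0.0684) were not called with the correction. Of 7 tested G1 cyclins and kinases, Ccne1 fell (-0.60, SE 0.13) and Ccnd2 rose (0.59, SE 0.12) with the block, and neither was called with the correction as well (adjusted p 0.0773 and 0.0691). Ccnd2 was also called higher at the PM stage than at the A stage (blocked adjusted p 0.0417), where 0.263% of all genes were called higher, and not with the correction (0.0788).

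**Figure D5:**
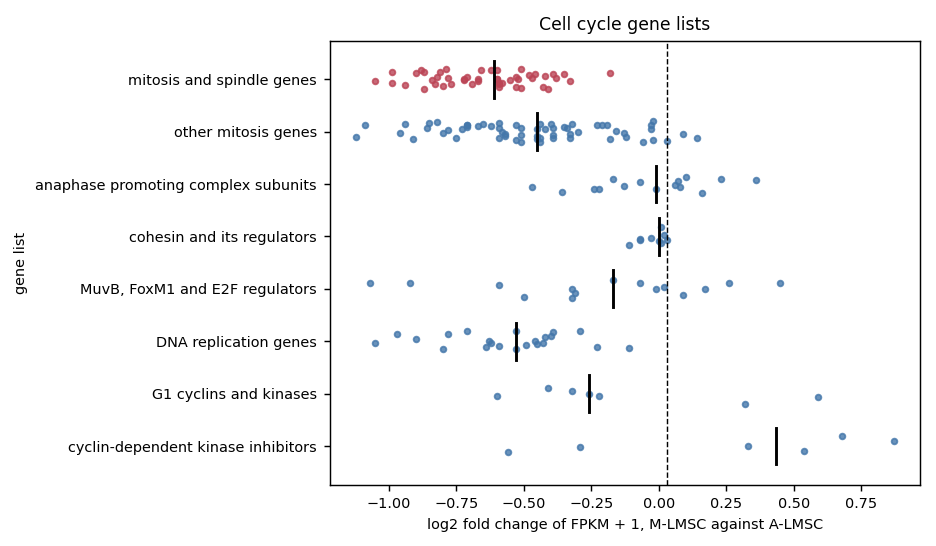
Fitted log2 fold change of FPKM + 1 from A-LMSCs to M-LMSCs (x axis) of each tested gene in 8 cell cycle lists, with the median of each list as a black bar and the median of all genes tested (0.03) as a dashed line. The mitosis and spindle genes have a median of -0.61, DNA replication genes of -0.53, and anaphase promoting complex subunits and cohesin of -0.01 and 0.

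Some markers of other cells moved with the stage. The summed FPKM of 12 haematopoietic markers was 123 to 131 in A-LMSCs, 73.5 to 166 in PM-LMSCs and 286 to 400 in M-LMSCs. Of these markers, 4 of the 5 tested rose from A-LMSCs to M-LMSCs with the block. In that fit 2.28% of all genes were called higher and 1.64% lower. Lyz2 made up most of the haematopoietic sum, while Ptprc, which encodes CD45, was at 0.0254 to 0.0987 FPKM and Ly6g was at 0 in all libraries. The 8 mesothelial markers summed to 124 to 182, 303 to 420 and 205 to 501 FPKM, with 5 of 7 tested called higher with the block and Krt19, also an epithelial marker, lower. The 12 epithelial markers summed to 17.6 to 24.3, 18.8 to 28.1 and 16.5 to 29.3 FPKM, with 2 of 3 tested called higher and Krt19 lower, and Epcam listed at 0 in all libraries of the first 2 stages. The 8 endothelial markers summed to 2.07 to 2.12, 2.17 to 2.47 and 3.28 to 3.31 FPKM, so that no 2 stages overlapped, and the 1 tested, Kdr, was called higher. The 10 stromal markers summed to 2490 to 2550, 2080 to 2410 and 2300 to 3230 FPKM with 0 called, and Col1a1 and Vim were among the abundant RNAs of every library. With the correction for GC content and length as well, 2 of the haematopoietic, 4 of the mesothelial and 2 of the epithelial markers were called higher. Of all genes, 1.56% were called higher in that fit. Kdr was not called (0.0523). The part of these other cells in the levels of the mitosis genes was not tested.

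Library depth, estimated from the spacing of low FPKM values, was 14780000 to 20840000 fragments, and the members rested on an estimated 53.1 to 10400 fragments each in a library. The member figures take all annotated exon bases of a gene as its length. The unknown counter may have used another length, so they are rough. Library profiles correlated with each other at 0.966 to 0.992, and none was left out.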

How the data were processed

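Total RNA of 6 LMSC cultures, 2 for each of 3 stages, was sequenced. The authors aligned reads with TopHat2 2.0.9 to mm10, per the submitters' processing notes, and deposited FPKM per gene. The counter, the annotation and the strand setting are not given in the sources used here. All columns of per-sample values were used. The labels' replicate numbers and stages gave the groups. E-LMSCs and L-LMSCs of the labels are A-LMSCs and PM-LMSCs here. The further library per stage that the study holds in another series was not analysed here.

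The members, the other gene lists and the rule for naming genes were chosen with earlier results of these data known. All 50 members could be named, and values in every library were given for members past the threshold, the 5 largest and 5 smallest differences, the 5 highest means and the untested members. Of the other cell cycle lists, counts and the genes at either end were given, and of the marker lists counts and sums.

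The 10279 genes whose mean over all libraries reached 1 FPKM were tested with limma 3.58.1 in R 4.3.3 on log2(FPKM + 1), with 1 mean per stage over all 6 libraries, a mean-variance trend and Benjamini-Hochberg adjustment at 0.05. A second fit added the replicate number as a block. Deviations of same-numbered libraries from their stage means correlated at 0.238 (A and PM), 0.307 (A and M) and 0.491 (PM and M), each above 0.1, so the numbers were taken to pair the libraries. That pairing comes from the numbers and the data, since the labels name no shared mouse, batch or day. GC content and length came from GENCODE M21 (GRCm38), in which 34344 of 34745 identifiers matched, and were corrected for by a lowess curve (span 0.3). Depth was estimated from the spacing of low FPKM values of single-transcript genes, of which 96.864% or more came out as whole fragments within 0.1. The count test was not run, since fragments were recovered only for part of the genes. Near-identical copies were found with blastn 2.17.0. Scripts were tested on simulated data. Other pseudocounts, filters, scalings and left-out libraries were tried as alternatives.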

Additional observations from a re-analysis of the deposited data

How the results depend on the processing

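With 2 libraries per stage, counts of calls depended on the fit, while the direction of the members did not: all 48 tested members were lower in M-LMSCs than in A-LMSCs under each of the 15 settings, with fitted values between -1.40 and -0.09. From A-LMSCs to M-LMSCs, 0 members were called lower without the block, 23 with the replicate block, 1 with the GC and length correction, 22 with both, and 0 to 9 when each library was left out in turn, the 9 without M-LMSC replicate 2. Leaving out a library leaves its stage with a lone sample, which is then assumed to vary like the others. The members' median of -0.61 was -0.80 with a pseudocount of 0.1, -0.73 with the GC and length correction, with or without the block, and between -0.73 and -0.56 without each library. The members with both PM-LMSC libraries below both A-LMSC libraries numbered 27, and 28 to 41 without each A-LMSC or PM-LMSC library, the 41 without PM-LMSC replicate 1. With a library left out the condition is easier to meet, so the larger counts do not compare with the 27. No other call of members changed with the replicate block. Quantile normalization, centring on the library median, the other pseudocount, no filter and fits of only the 2 stages compared left the count of members called at 0 in all 3 comparisons.

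Over all genes, 4 were called from A-LMSCs to PM-LMSCs, 1 with no filter on low values, 21 with only the 2 stages compared, 30 with the replicate block, and 1 to 28 without each library. From A-LMSCs to M-LMSCs 7 were called, 3 with no filter, 1 with only the 2 stages, 403 with the replicate block, 13 with the GC and length correction, 286 with both, and 1 to 90 without each library. From PM-LMSCs to M-LMSCs 3 were called, 43 with the replicate block, 5 with the GC and length correction, 6 with both, and 2 to 25 without each library. The cause of these changes was not tested. The GC and length settings were chosen after seeing the data. Low levels and few fragments limit the precision of single values of some members. The fewest estimated fragments were 53.1, for Pttg1 at 1.61 FPKM in M-LMSC replicate 1.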
